A study of Mus musculus with 2 samples.

Results

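The NF-kappaB and innate adaptor genes form a set of 45 genes that carry signals from Toll-like and related receptors to the NF-kappaB transcription factors. They comprise co-receptors, adaptors, kinases, ubiquitin ligases, NF-kappaB subunits and feedback inhibitors, and were chosen by name from the 34745 genes of the deposited table. Each of the 45 was found once, and each reached 1 FPKM (counted reads scaled to gene length and library total) in at least one library, as did 10948 genes in all. Monocytic myeloid-derived suppressor cells (M-MDSCs) were grown for 7 days from bone marrow of young adult mice with the growth factor GM-CSF alone (CHBP- M-MDSC) or with GM-CSF and CHBP, a cyclic peptide derived from erythropoietin (CHBP+ M-MDSC). The methods describe testing or sorting of induced cells on CD11b, Ly-6G and Ly-6C, but their RNA sequencing section does not say whether the sequenced cells were sorted. The labels name no genetic change in either group, and both had been exposed to GM-CSF. The strain label reads C57BL/6 in the CHBP- sample but C57BL/7 in the CHBP+ sample, and the methods give C57BL/6. The CHBP dose is given in different units in the methods and in the dose series, and the labels give none. RNA was sequenced as 1 library per condition, so there is no spread between replicates, no P value between conditions was computed, and CHBP cannot be told apart from any other difference between both libraries.

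Toll-like receptors and the IL-1 receptor recruit adaptors such as MyD88 and TRIF when they bind their ligands. MyD88 engages IRAK kinases and TRAF ubiquitin ligases, which switch on TAK1 and then the IKK complex. IKK marks the IkappaB proteins for destruction and frees NF-kappaB dimers to enter the nucleus. Several of the genes that NF-kappaB switches on, among them Nfkbia and Tnfaip3, encode inhibitors that shut the pathway down again. In monocytes and macrophages the pathway drives inflammatory cytokine production.

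Library totals in the deposited counts were 16484504 reads (CHBP-) and 16280466 reads (CHBP+), of which the 45 genes held 0.332% and 0.338%. Where paired values follow below, the CHBP- library comes first. The fold given here is the ratio of CPM (reads scaled to the library total), CHBP+ over CHBP- M-MDSC, followed by its exact Clopper-Pearson 95% interval, which covers counting error only, since reads are not independent molecules. Of the sorting markers, the CD11b gene Itgam had 18653 and 27265 reads on its main entry, which a further Itgam entry overlaps, and Ly6c2 had 4091 and 2411 reads. Ly6c1 had 201 and 156 reads, or 3.70 and 2.91 FPKM. Ly6g, which marks granulocytic cells, had 46 and 44 reads, or 2.19 and 2.12 FPKM. The 10 M-MDSC markers, with both Itgam entries, summed to 10884 and 9078 FPKM, of which Lyz2 alone gave 9756 and 7830 FPKM. Nos2, which is among the 10, stayed below 1 FPKM at 0.203 and 0.381 FPKM. Most markers of the label were thus present, but so were genes listed as markers of other cells. The summed level of 8 B cell markers was 128 and 96.4 FPKM, that of 10 mast cell and basophil markers 301 and 248 FPKM, that of 10 neutrophil markers 3323 and 3020 FPKM, and that of 8 erythroid markers 1306 and 602 FPKM. Of the neutrophil sum, Mmp8 alone gave 1290 and 1546 FPKM, and the other 9 summed to 2033 and 1474 FPKM. Among those 9, S100a9 gave 1269 and 937 FPKM and S100a8 576 and 391 FPKM, whereas Camp stood at 1.76 and 1.38 FPKM. Of the erythroid sum, Hbb-bs alone gave 708 and 212 FPKM, and the other 7 summed to 598 and 390 FPKM. The 10 dendritic cell markers summed to 133 and 164 FPKM, with Xcr1 at 0 reads in both libraries, but Itgax alone gave 107 and 142 FPKM of this and the other 9 summed to 26.6 and 22.1 FPKM. The 10 macrophage markers summed to 207 and 233 FPKM, and to 49.6 and 49.5 FPKM without Adgre1. Of 10 T cell markers (51.5 and 59.8 FPKM in sum), Il7r, which encodes the CD127 that the study also stained on MDSCs, gave 43.1 and 51.9 FPKM and the other 9 together 8.39 and 7.82 FPKM. Among those 9, 6 stayed below 1 FPKM in both libraries. The part of such cells in the results was not tested, and in bulk RNA fewer cells of a type cannot be told apart from less RNA per cell.

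Promoters of 4 of the genes, among them the highest and the lowest by fold, are shown first, because NF-kappaB controls several of its own regulators. Sequences are those of RefSeq on GRCm38.p6, which held 46 promoter windows for 34 of the 45 genes, each from 250 bases before to 50 bases after a start site. They were searched on both strands for GGG followed by any 2 bases and TTTCC, a spelling of the kappaB site to which NF-kappaB dimers bind. This spelling was found in 10 windows of 8 genes, Traf3, Tnfaip3, Rel, Nfkbia, Nfkb2, Cyld, Map3k7 and Traf2, or 21.7% of the windows, and in 1.63% of all 32851 promoter windows of the same length. It was chosen after several spellings had been tried. Some windows of Nfkb2 overlap, and a match that they share was counted in each. A match is not evidence of binding, which these libraries do not measure. The 250 bases before the start site, 5′ to 3′ on the strand of the gene, are given below in lower case for 4 genes with a match, and the match is in capitals.
Traf3: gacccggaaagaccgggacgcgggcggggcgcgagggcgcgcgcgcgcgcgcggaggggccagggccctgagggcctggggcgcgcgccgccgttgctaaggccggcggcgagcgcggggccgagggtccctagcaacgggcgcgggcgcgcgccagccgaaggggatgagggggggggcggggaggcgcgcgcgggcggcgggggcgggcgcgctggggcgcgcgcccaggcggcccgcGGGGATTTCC
Tnfaip3: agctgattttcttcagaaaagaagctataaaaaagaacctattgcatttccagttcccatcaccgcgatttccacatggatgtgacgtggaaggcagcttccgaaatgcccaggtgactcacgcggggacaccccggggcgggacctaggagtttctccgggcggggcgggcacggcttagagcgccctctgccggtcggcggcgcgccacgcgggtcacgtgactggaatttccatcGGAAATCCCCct
Rel: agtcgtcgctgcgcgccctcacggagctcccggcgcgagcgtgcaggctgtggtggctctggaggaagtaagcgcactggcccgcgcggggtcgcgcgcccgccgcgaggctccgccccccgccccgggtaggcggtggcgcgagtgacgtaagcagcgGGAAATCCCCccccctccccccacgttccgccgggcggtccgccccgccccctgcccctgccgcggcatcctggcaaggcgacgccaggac
Nfkbia: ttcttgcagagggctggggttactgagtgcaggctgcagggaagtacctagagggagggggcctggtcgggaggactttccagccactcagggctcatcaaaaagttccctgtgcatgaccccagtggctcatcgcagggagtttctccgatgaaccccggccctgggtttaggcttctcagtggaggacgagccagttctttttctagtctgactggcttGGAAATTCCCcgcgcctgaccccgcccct
These lie at chr12:111166120-111166369 (Traf3, plus strand), chr10:19015411-19015660 (Tnfaip3, minus strand), chr11:23770970-23771219 (Rel, minus strand) and chr12:55492648-55492897 (Nfkbia, minus strand). The match of Traf3 begins 10 bases before the start site, that of Tnfaip3 12, that of Nfkbia 29 and that of Rel 91. In Traf3 the capitals read the motif directly, whereas in Tnfaip3, Rel and Nfkbia the motif lies on the opposite strand and the capitals show its reverse complement. Traf3, Tnfaip3 and Rel hold the same 10 bases, GGGGATTTCC on the strand of the motif, and Nfkbia holds GGGAATTTCC. The fold of the 8 genes ranged from 0.559 for Tnfaip3 to 3.01 for Traf3. These letters were not in the windows of Irak1, which follows Traf3 in fold. Under a stricter spelling that requires A after GGG, none of Traf3, Tnfaip3 and Rel held a match.

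Of the 45 genes, 2 were at least 1.5-fold higher in CHBP+ M-MDSC, Traf3 and Irak1, and 1 was at least 1.5-fold lower, Tnfaip3. Among all 10948 genes kept, 6.48% were at least 1.5-fold higher and 5.51% at least 1.5-fold lower, so that the 4.44% and 2.22% of these genes did not exceed the background. The counting interval lay wholly above 1 for 15 genes, wholly below 1 for 12 and included 1 for 18. The corresponding shares over all genes kept were 27.9% above and 31% below. The median fold was 1.03, against 0.977 over all genes kept. Most of the pathway thus differed little between both libraries, and the description below turns on the few genes that did.

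**Figure D1:**
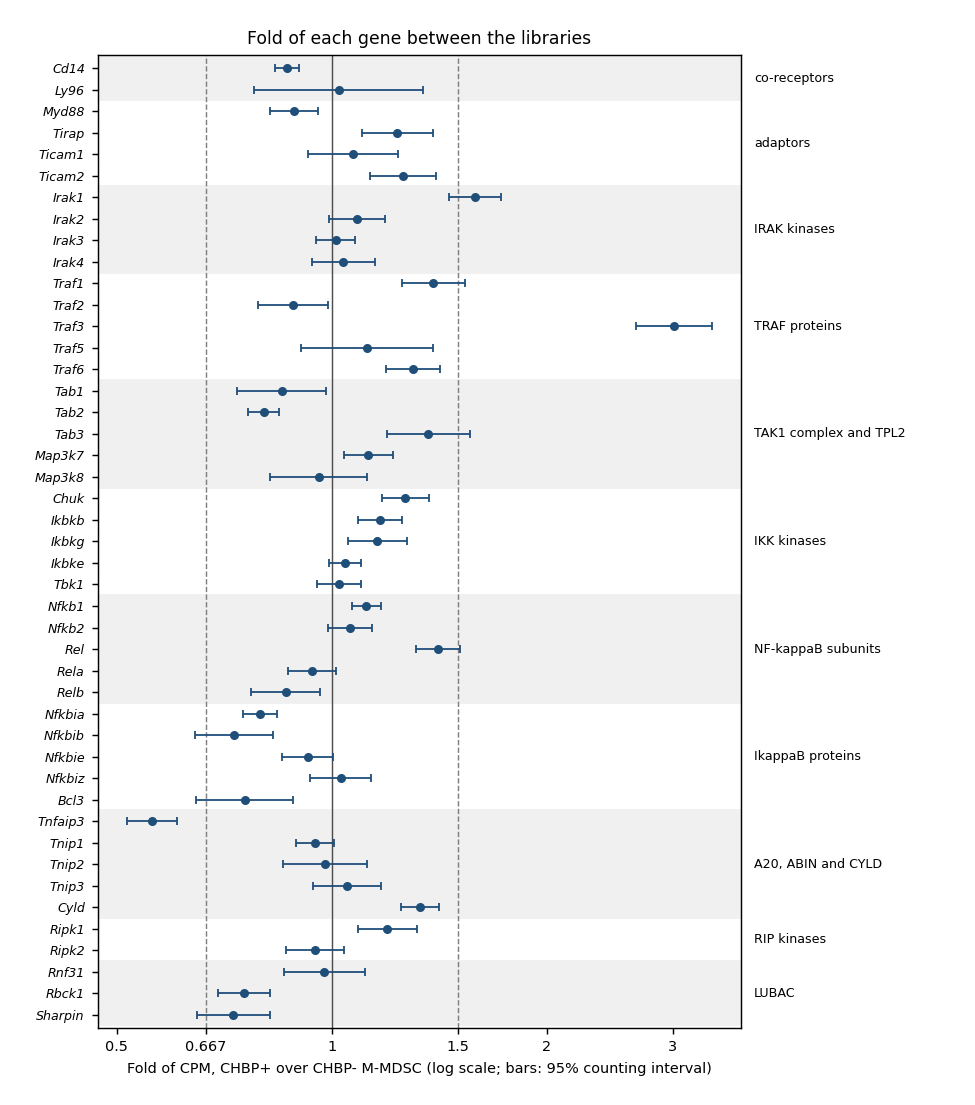
Fold of CPM (log scale), CHBP+ over CHBP- M-MDSC, for each of the 45 genes, grouped by role and with 1 library per condition. Points are folds, bars are 95% Clopper-Pearson counting intervals and dashed lines mark 1.5-fold, which Traf3 (3.01), Irak1 (1.58) and Tnfaip3 (0.559) pass.

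Traf3 (ENSMUSG00000021277, chr12:111166370-111267153 on GRCm38) encodes a ubiquitin ligase adaptor that restrains alternative NF-kappaB signalling and takes part in interferon induction. Its 356 reads in the CHBP- library compare with 1058 in the CHBP+ library, which correspond to 1.07 and 3.22 FPKM. The fold was 3.01 (2.67 to 3.40), the highest of the 45 genes and at percentile 99.3 of all genes kept. Tnfaip3 (ENSMUSG00000019850, chr10:19000910-19015657) encodes A20, a ubiquitin-editing enzyme that shuts NF-kappaB signalling down. It had 1709 and 944 reads, or 7.43 and 4.15 FPKM. Its fold of 0.559 (0.516 to 0.606) was the lowest of the 45 genes, at percentile 2.06 of all genes kept. Irak1 (ENSMUSG00000031392, chrX:74013914-74023918), a kinase recruited by MyD88, had 911 and 1426 reads, or 4.22 and 6.69 FPKM. Its fold was 1.58 (1.46 to 1.72), an interval that reaches below 1.5. With a pseudocount of 1 FPKM added to each level, the log2 ratio of Irak1 was 0.56, short of the 0.58 that corresponds to 1.5-fold.

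The co-receptors of the LPS receptor differed little. Cd14, which hands LPS to the receptor, was the most abundant gene of the set at 206 and 179 FPKM, with a fold of 0.865 (0.831 to 0.900). Ly96, whose product MD-2 holds LPS on the receptor, had 111 and 112 reads, the fewest of the 45 genes, with a fold of 1.02 (0.779 to 1.34). Tlr4, the receptor that both serve, had 556 and 4443 reads in the same libraries, or 4.99 and 40.4 FPKM, a fold of 8.09 (7.41 to 8.85). The receptor thus differed between both libraries while Cd14 and Ly96 did not differ in that direction beyond counting error.

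Among the adaptors, Myd88, which serves most Toll-like receptors, had 1411 and 1233 reads and a fold of 0.885 (0.819 to 0.956). Tirap, which bridges MyD88 to the membrane, had 559 and 682 reads and a fold of 1.24 (1.10 to 1.38). Ticam1, which encodes TRIF, had 368 and 389 reads and a fold of 1.07 (0.926 to 1.24). Ticam2, which encodes the TRIF bridge TRAM, had 619 and 769 reads and a fold of 1.26 (1.13 to 1.40). Its span shares 14299 bases with Tmed7 on the same strand, so the counting could have moved reads between them, and the reads of both genes together gave a fold of 1.09 (1.04 to 1.13).

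Like Ticam2, 10 further genes of the set overlap a neighbour, so that their values share this doubt. These are Myd88, Tirap, Irak2, Irak3, Irak4, Ikbkg, Nfkbib, Bcl3, Ripk1 and Rnf31. Tirap overlaps Srpr, and both together gave a fold of 1.08 (1.02 to 1.14). For Myd88 with Acaa1a the joint fold was 0.867 (0.819 to 0.917). It was 1.10 (1.01 to 1.20) for Irak2 with RP24-430K15.4 and 1.06 (1.004 to 1.12) for Irak4 with Twf1. Ripk1 with Serpinb6a gave 1.12 (1.04 to 1.21), Rnf31 with Irf9 0.939 (0.864 to 1.02) and Bcl3 with Gm16174 0.752 (0.645 to 0.875). Traf3, Irak1 and Tnfaip3 overlap none.

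The other IRAK genes lay close to 1. Irak3, which encodes the inhibitory IRAK-M, had 2066 and 2064 reads and a fold of 1.01 (0.951 to 1.08), and together with the overlapping Tmbim4 the fold was 0.941 (0.891 to 0.993). Irak2 had 933 and 1000 reads and Irak4, the kinase that starts the cascade, 745 and 763. The intervals of these 3 genes included 1. Of the TRAF genes, Traf1, an inducible member without a ligase domain, had 657 and 899 reads and a fold of 1.39 (1.25 to 1.53). Traf6, the ligase that acts downstream of the IRAKs, had 934 and 1199 reads and a fold of 1.30 (1.19 to 1.42). Traf2, which serves TNF receptors, was the exception with 671 and 585 reads and a fold of 0.883 (0.789 to 0.988). For Traf5, a further adaptor of TNF receptor family members, the interval from 0.905 to 1.39 included 1.

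The genes of the TAK1 complex lay on both sides of 1. Tab2, an adaptor that binds ubiquitin chains, had 3487 and 2762 reads, or 25.7 and 20.6 FPKM, and a fold of 0.802 (0.763 to 0.843). Its relative Tab3 had 380 and 512 reads, or 3.05 and 4.16 FPKM, and a fold of 1.36 (1.19 to 1.56). Tab1, which activates the kinase, had a fold of 0.851 (0.737 to 0.981), and Map3k7, the TAK1 kinase itself, 1.12 (1.04 to 1.22). Map3k8, or TPL2, a kinase held inactive by the Nfkb1 product, had 338 and 320 reads with an interval from 0.820 to 1.12.

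All 5 IKK and IKK-related genes had folds above 1, from 1.02 for Tbk1 to 1.27 for Chuk, against 46.2% of all genes kept. With the transcript length and GC trend described below removed, 3 of the 5 lay above 0 and 2 below. With a trend on the deposited gene length removed instead, the log2 ratio was -0.26 for Ikbkb, -0.23 for Ikbkg and -0.15 for Ikbke. It was 0.24 for Chuk and 0.16 for Tbk1. The intervals lay above 1 for the 3 genes of the IKK complex. Chuk (IKKalpha) had 1221 and 1527 reads with a fold of 1.27 (1.17 to 1.37), and Ikbkb (IKKbeta) 1485 and 1711 reads with a fold of 1.17 (1.09 to 1.25). Ikbkg (NEMO), the regulatory subunit, had 793 and 907 reads with a fold of 1.16 (1.05 to 1.28). Its span overlaps that of G6pdx over 19712 bases, and both genes together gave a fold of 1.06 (1.02 to 1.09). Ikbke and Tbk1, the kinases that also act on interferon regulatory factors, had intervals that included 1.

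**Figure D2:**
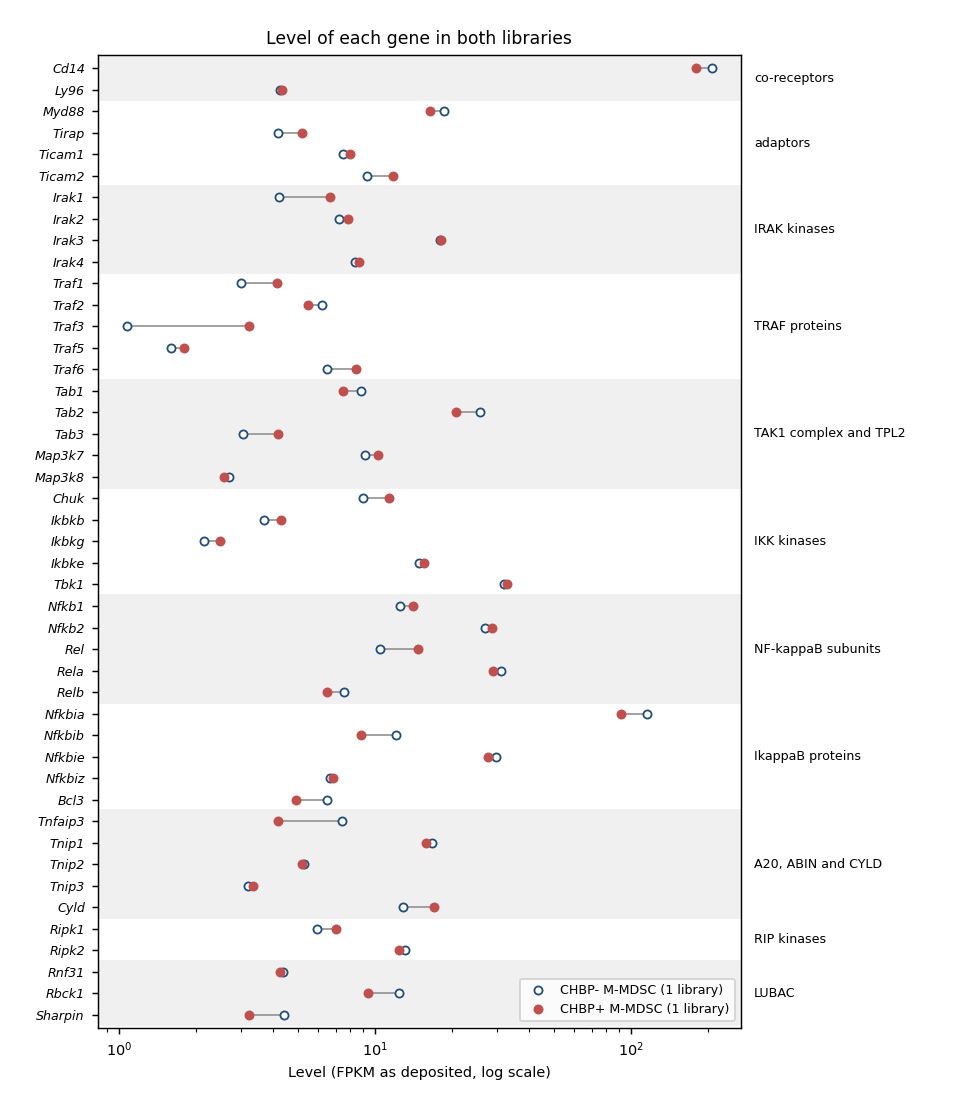
Level of each of the 45 genes in FPKM as deposited (log scale), with open circles for the CHBP- and filled circles for the CHBP+ library. Cd14 (206 and 179 FPKM) and Nfkbia (115 and 91.1 FPKM) lie far to the right, and the widest gap is that of Traf3.

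As measured, the NF-kappaB subunits were divided. Rel, the c-Rel subunit of activated lymphoid and myeloid cells, had 1289 and 1792 reads, or 10.5 and 14.7 FPKM, and a fold of 1.41 (1.31 to 1.51). Nfkb1, which encodes p105 and p50, had 3354 and 3700 reads and a fold of 1.12 (1.07 to 1.17). Relb, the subunit of the alternative pathway, had 689 and 586 reads and a fold of 0.861 (0.770 to 0.963). Rela, the main activating subunit (30.9 and 28.9 FPKM), and Nfkb2, which encodes p100 and p52 (26.9 and 28.6 FPKM), had intervals that included 1. With the transcript length and GC trend described below removed, 4 of the 5 subunits lay above 0 and 1 below. The log2 ratio of Nfkb1 was then 0.065, and -0.16 with the trend on the deposited gene length removed instead.

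The IkappaB genes lay mostly below 1. Nfkbia, the inhibitor that NF-kappaB itself induces, had 2984 and 2339 reads, or 115 and 91.1 FPKM, and a fold of 0.794 (0.752 to 0.838). Bcl3, an IkappaB protein that acts in the nucleus, had 389 and 290 reads and a fold of 0.755 (0.646 to 0.881). Nfkbib, which like Nfkbia holds dimers in the cytoplasm, had 591 and 426 reads and a fold of 0.730 (0.643 to 0.828). It shares 778 bases with Sirt2 on the opposite strand, which had 904 and 1290 reads, and both genes together gave a fold of 1.16 (1.08 to 1.25), the reverse direction, so that the lower value of Nfkbib is uncertain. Nfkbie and the nuclear Nfkbiz had intervals that included 1, and the median fold of the 5 IkappaB genes was 0.794. For comparison, the median fold of 10 housekeeping genes was 0.853, with intervals wholly below 1 for 8 of them.

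Apart from Tnfaip3, the inhibitors that act on ubiquitin chains did not share a direction. Cyld, a deubiquitinase that opposes the pathway, had 1857 and 2438 reads and a fold of 1.33 (1.25 to 1.41). The A20-binding genes Tnip1, Tnip2 and Tnip3 had folds of 0.946, 0.978 and 1.05, with intervals that included 1. Ripk1, a scaffold kinase of TNF signalling, had 795 and 939 reads and a fold of 1.20 (1.09 to 1.32), and Ripk2, which acts behind NOD receptors, 942 and 881 reads with an interval that included 1.

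The 3 genes of LUBAC, the ligase that builds linear ubiquitin chains, had folds below 1. Sharpin, an accessory subunit, had 690 and 496 reads and a fold of 0.728 (0.647 to 0.818), and Rbck1, which encodes HOIL-1, 1308 and 973 reads and a fold of 0.753 (0.693 to 0.819). The catalytic subunit Rnf31, or HOIP, had 473 and 456 reads and a fold of 0.976 (0.856 to 1.11). Over all genes kept, 53.7% had a fold below 1.

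The ratios moved with transcript length. Across 10211 genes the log2 ratio correlated with the longest transcript of the gene in GENCODE M1 (Spearman's rho 0.676, over genes of the same pair of libraries), and the cause was not tested. Among the 45 genes rho was 0.542. Of the 22 genes with transcripts shorter than the median of 3044 bases, 7 had a fold above 1 and 15 below, whereas of the 22 with longer transcripts 19 had a fold above 1 and 3 below. A curve of the log2 ratio on transcript length and GC content was fitted over all genes and subtracted. Tnfaip3 then stood at -1.0 instead of -0.84, Traf3 at 1.21 instead of 1.59 and Irak1 at 0.60 instead of 0.66, all past 1.5-fold. With a trend on the deposited gene length removed instead, Irak1 stood at 0.42, short of 1.5-fold, whereas Traf3 (1.19) and Tnfaip3 (-1.11) remained past it. The background for the transcript length and GC curve came from the 10211 genes with a transcript. After its subtraction, 3.1% of them passed 1.5-fold upwards and 2.26% downwards. On that scale 26 of the 45 genes lay above 0 and 19 below, against 48% and 52% of the 10211.

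**Figure D3:**
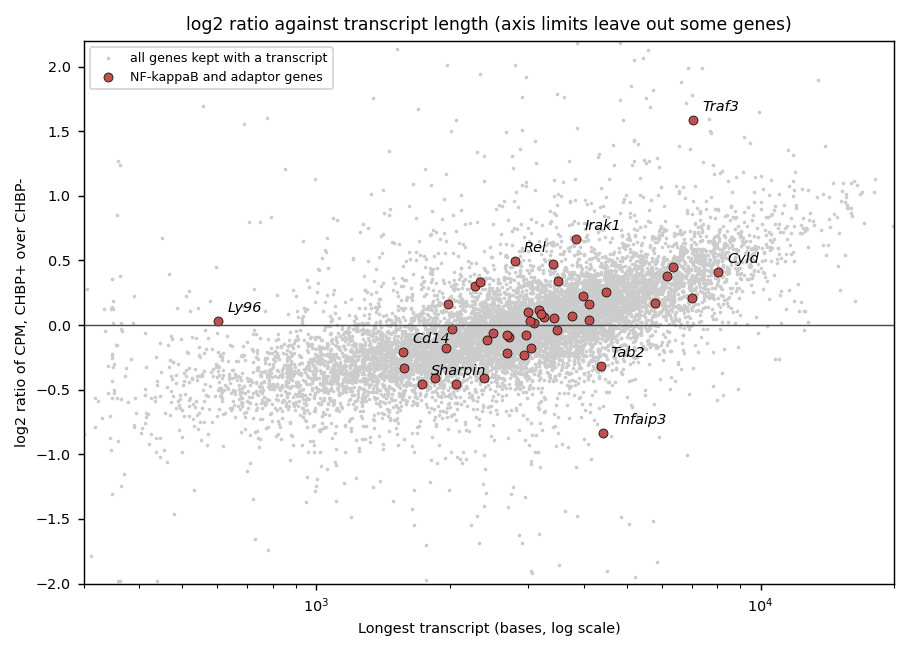
log2 ratio of CPM, CHBP+ over CHBP- M-MDSC, against the longest transcript in bases (log scale), with grey points for all genes kept that have a transcript (some lie outside the axes) and red points for the 45 genes. The cloud slopes upwards with length, and Traf3 lies above and Tnfaip3 below genes of their length.

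Other differences shrank or grew once the trend was removed. Cyld, with a transcript of 8022 bases, the longest of the set, went from a log2 ratio of 0.41 to -0.10, and Ikbkg from 0.21 to -0.22. Traf6 went from 0.38 to 0.02 and Tab3 from 0.45 to 0.06. Among genes with short transcripts, Nfkbia went from -0.33 to -0.08, Bcl3 from -0.41 to -0.08, Rbck1 from -0.41 to -0.20 and Sharpin from -0.46 to -0.18. The median of the IkappaB genes became -0.08. Length and GC content were removed together, so the share of each in these shifts was not tested. With a trend on the deposited gene length alone, Cyld stood at 0.29, Traf6 at 0.26, Tab3 at 0.37 and Ikbkg at -0.23. On that trend Nfkbia stood at -0.11, Bcl3 at -0.31, Rbck1 at -0.44 and Sharpin at -0.60. By contrast, Rel went from 0.49 to 0.47, Traf1 stood at 0.47 on both scales, Tirap went from 0.30 to 0.45, and Tab2, lower despite a transcript of 4380 bases, went from -0.32 to -0.48. With the trend on gene length alone, Traf1 stood at 0.22, Tirap at 0.21, Rel at 0.42 and Tab2 at -0.42. In all, 14 of the 45 genes changed sign with the transcript length and GC trend removed, and 10 with the gene length trend removed.

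**Figure D4:**
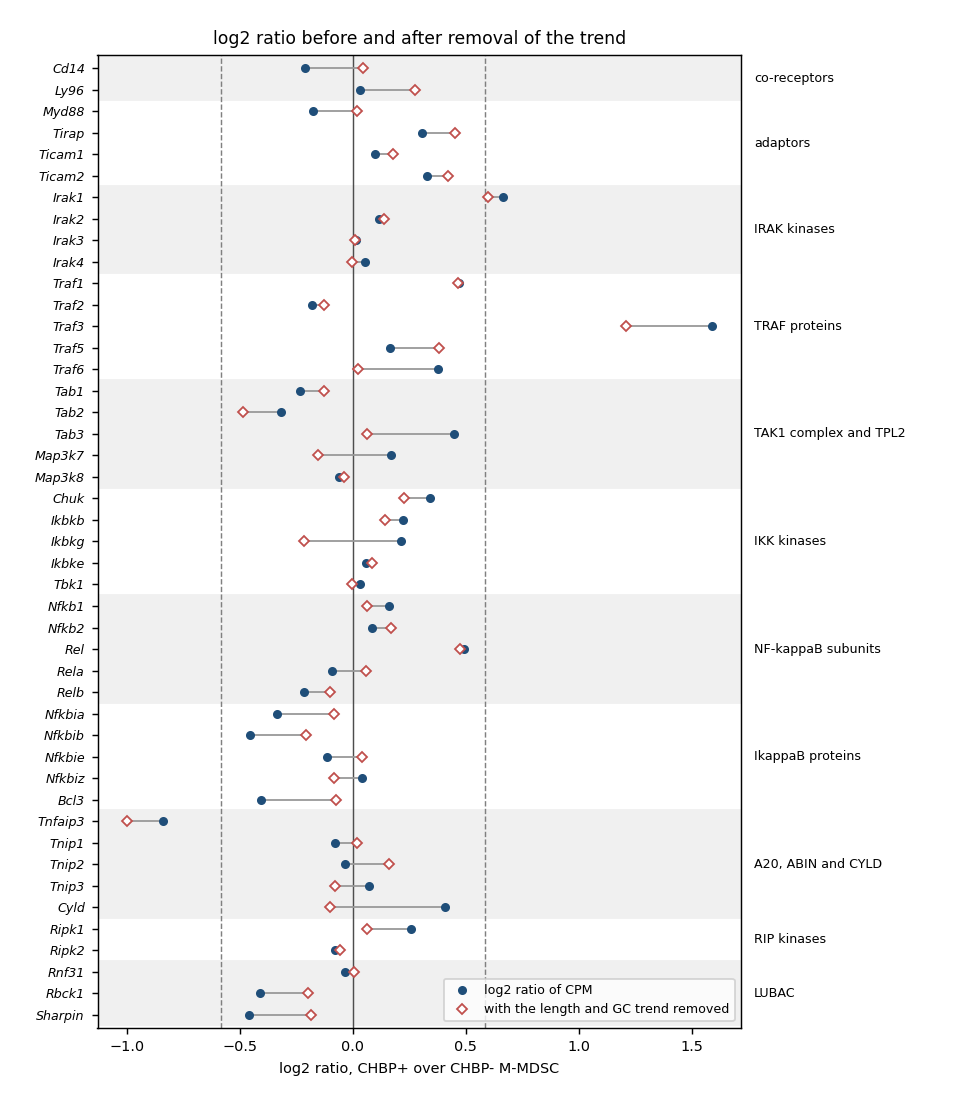
log2 ratio of each of the 45 genes as measured (filled circles) and with the transcript length and GC trend removed (open diamonds), grouped by role, with dashed lines at 1.5-fold. Traf3, Irak1 and Tnfaip3 stay outside the dashed lines, whereas Cyld and Ikbkg cross 0.

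The order of levels within a complex depended on the gene length used. The length implied by the deposited counts and FPKM was 24415 bases for Ikbkb, against a longest transcript of 3977 bases, and 8297 against 3502 for Chuk. On the deposited scale Ikbkb stood at 3.69 and 4.30 FPKM, below Chuk at 8.93 and 11.3 FPKM. With CPM divided by the longest transcript in kilobases, levels were 22.7 and 26.4 for Ikbkb and 21.2 and 26.8 for Chuk, so that the 2 kinases of the IKK complex then stood close to each other. Ikbkg was lower than both at 6.88 and 7.97 on that scale. Sharpin went from rank 38 to rank 17 of the 45 genes and Ikbke from 11 to 3, while Cd14 and Nfkbia ranked first and second on both scales. Ratios between the libraries do not depend on this choice.

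Upstream of these genes, 21 receptors that signal to NF-kappaB were looked up, and 17 reached 1 FPKM. Of these, 4 were at least 1.5-fold higher (Tlr4, Tlr8, Il1r1 and Tlr9, the last named after its value was seen) and 0 were at least 1.5-fold lower, and 15 of the 17 had a fold above 1. Over all genes kept, 6.48% were at least 1.5-fold higher and 46.2% had a fold above 1. The highest were Tlr4, Tlr8 (353 and 758 reads, fold 2.17, 1.91 to 2.47) and the IL-1 receptor Il1r1 (127 and 229 reads, fold 1.83, 1.46 to 2.29). Il1r1 stood at 0.785 and 1.43 FPKM, so it passed the filter only through the library in which it was higher. It is counted among the 4 on that basis. The lowest was Ltbr, the lymphotoxin beta receptor, at 0.792 (0.719 to 0.872). Of 49 further pathway genes, 46 reached 1 FPKM, none was at least 1.5-fold higher and 1 was at least 1.5-fold lower. That gene was Traf4, with 132 and 83 reads and a fold of 0.637 (0.478 to 0.844). Malt1, the protease that joins antigen and lectin receptors to NF-kappaB, was the highest at 1.48 (1.42 to 1.53), followed by the PI3K adaptor gene Pik3ap1 at 1.43 (1.35 to 1.51).

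Among 32 genes known as NF-kappaB targets, 30 reached 1 FPKM, none was at least 1.5-fold higher and 4 were at least 1.5-fold lower, among them Lcn2, named after its value was seen. The shares over all genes kept were 6.48% higher and 5.51% lower. The lowest were Bcl2l1, which encodes the survival protein Bcl-xL (893 and 358 reads, fold 0.406, 0.358 to 0.459), the chemokine gene Ccl5 (71 and 29 reads, fold 0.414, 0.259 to 0.645) and the acute phase gene Saa3 (59 and 34 reads, fold 0.583, 0.371 to 0.905). Cflar, an inhibitor of death receptor signalling, was the highest at 1.48 (1.40 to 1.56). The median log2 ratio of the 30 targets was -0.19, and 0.03 once the length and GC trend was removed, so that no direction of the targets as a list held under both.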

How the data were processed

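mRNA of M-MDSCs was sequenced as 1 library per condition, and samples were grouped by their labels. The methods name TopHat2, mm9 and HT-seq, whereas the submitters' processing notes name HISAT2 2.0.4, Cufflinks 2.1.1 and GRCm38. The deposited counts are raw reads per gene, and the FPKM deposited by the authors equal the count over a gene length and the library total. Whether counting used strand is not given in the sources used here. All 45 genes overlapped their RefSeq gene on GRCm38, and 5 of 45 their GENCODE M1 gene on mm9, which was used only for transcript length, GC content and strand.

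CPM ratios and Clopper-Pearson intervals were computed in Python 3.11.15 with scipy 1.17.1, numpy 2.4.6 and pandas 2.3.3, and figures were drawn with matplotlib 3.10.9. Genes that reached 1 FPKM in either library were kept, and the 1.5-fold threshold is that of the methods. The trend was a least-squares polynomial of degree 3, with transcripts found for 93.3% of the genes kept. Trimmed mean of M values was computed with edgeR 4.0.16 in R 4.3.3. Alternatives were other pseudocounts and filters, median centring, trimmed means, a gene length trend, leaving out overlapping genes and a threshold of 2. No count model was fitted, because 1 library per condition leaves no spread to estimate, and the methods' DESeq P value was not repeated. For a kept gene without reads in a library, the floor of 3 reads was used. Named genes are the 45, the sorting markers, overlapping genes with at least 10 reads, and at most the 3 highest and 3 lowest genes of each further pathway list. The members, lists and tests were chosen with earlier results of these data known. The fold, its interval and a trend on length alone were tried on simulated data that held counting error only for the reads. The curve with GC content, the gene lists and the motif search were not tried in this way.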

Additional observations from a re-analysis of the deposited data

How the results depend on the processing

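Each value rests on 1 library per condition, so depth sets the counting intervals only, and genes with few reads, such as Ly96 (111 and 112) and Traf5 (170 and 188), could not show small differences. No paired analysis was possible because each group holds a lone library, which also means that leaving out a replicate could not be tried. Of the 45 genes, the number at least 1.5-fold higher was 1 with a pseudocount of 1 FPKM, with at least 5 FPKM required (which leaves out Traf3), with the gene length trend removed and at a fold threshold of 2, in place of 2, and Irak1 was the gene lost in the other 3 settings. The number at least 1.5-fold lower was 2 with the gene length trend removed, where Sharpin joined Tnfaip3, and 0 at a fold threshold of 2, in place of 1. With a pseudocount of 0.1 FPKM, no filter, the median log2 ratio set to 0, trimmed mean of M values or the transcript length and GC trend removed, Traf3, Irak1 and Tnfaip3 were the genes past 1.5-fold. Of the receptors, 2 in place of 4 were at least 1.5-fold higher with a pseudocount of 1 FPKM, at 5 FPKM and at a threshold of 2, and their median log2 ratio of 0.34 was 0.13 with the transcript trend removed. Of the further pathway genes, 1 in place of 0 was higher with the median set to 0, with trimmed mean of M values and with the gene length trend removed, and 0 in place of 1 was lower with a pseudocount of 1 FPKM, at 5 FPKM, with the transcript trend removed and at a threshold of 2. Of the targets, 1 in place of 0 was higher with no filter, the median set to 0, trimmed mean of M values or the transcript trend removed, and 2 in place of 4 were lower at 5 FPKM, with either trend removed and at a threshold of 2. Their median log2 ratio of -0.19 was -0.052 with the gene length trend and 0.027 with the transcript trend removed, and that of the housekeeping genes went from -0.23 to -0.066 with the latter. Over all genes, 709 higher and 603 lower became 374 and 316 with a pseudocount of 1 FPKM, 1973 and 1595 with no filter, 302 and 296 at 5 FPKM, 317 and 231 with the transcript trend removed and 214 and 126 at a threshold of 2. The causes were not tested. Summing reads with overlapping genes was chosen after seeing the data.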

Other observations

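Of the spellings of the kappaB site tried on the promoters, the stricter GGGA, any base and TTTCC was present in 5 of the 46 windows, those of Cyld, Map3k7, Nfkb2 and Nfkbia, or 10.9%, against 0.411% of all windows of that length. The windows of Nfkb2 overlap and share a match, which was counted in each. GGGA, any 2 bases and TTCC was present in windows of the same 4 genes, against 1.47% of all windows. The loose GGG, any 5 bases and CC was present in 76.1% of the windows, against 50.8% of all. Under the strict spelling none of Traf3, Tnfaip3 and Rel held a match. Of the 4 genes that did, the folds were 1.33 for Cyld, 1.12 for Map3k7, 1.06 for Nfkb2 and 0.794 for Nfkbia.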
